A study of Mus musculus with 8 samples.

Results

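The 37 genes described here code for regulators of pre-mRNA splicing: 13 SR and Tra2 proteins (Srsf1 to Srsf7, Srsf9 to Srsf12, Tra2a and Tra2b), 18 heterogeneous nuclear ribonucleoproteins (hnRNPs, every entry whose symbol begins with Hnrnp), and 6 kinases that phosphorylate SR proteins (Clk1 to Clk4, Srpk1 and Srpk2). They were chosen by a rule on symbols that uses no measured value, though with earlier results of these data known. They are 37 of the 23420 entries of the count tables. RNA was sequenced from NIH3T3 cells, a mouse embryonic fibroblast line. The 4 knockdown libraries came from cells carrying shRNA against RPRD1B, which attaches to the carboxy-terminal repeats of RNA polymerase II, and the 4 control libraries from cells carrying a scrambled shRNA. Per the labels, all cells were grown in bovine calf serum with puromycin selection for at least a week, and neither the hairpin sequence nor the number of hairpins is stated there. The libraries came as 2 sets, with replicates 1 and 2 of each group in set 1 and replicates 3 and 4 in set 2. What distinguishes the sets is not stated, nor whether replicates are separate cultures, so p-values measure the spread between these libraries, which may be technical.

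SR proteins carry an RNA recognition motif and a tail rich in arginine and serine. They bind exons, usually favour their inclusion, and help recruit the spliceosome, while Tra2 proteins are closely related activators. hnRNPs coat nascent transcripts and often, though not always, oppose exon inclusion. SRPK kinases act on the tail mostly in the cytoplasm and open the way to the nucleus, and CLK kinases act in the nucleus and release SR proteins from nuclear speckles. Many of these genes control their own level through alternative exons that expose the transcript to nonsense-mediated decay. The values below are counts summed over a whole gene, so they show no exon choice, isoform, phosphorylation or protein level.

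The libraries held 12311442 to 23223139 counts, at which 3 counts amount to 0.129 to 0.244 CPM (counts scaled to a common library size), a floor that covers counting error only. Rprd1b stood at 26.4, 28.0, 22.5 and 22.7 CPM in knockdown libraries 1 to 4, against 42.3, 44.4, 39.5 and 40.8 CPM in scrambled libraries 1 to 4. Its log2 fold change over both sets was -0.75 ± 0.0664 (SE, edgeR adjusted p = 4.14e-14), lower in 4 of 4 knockdown libraries than in every scrambled library. All 8 fibroblast markers were detected, with summed levels of 16080 to 16440 CPM in knockdown and 16140 to 16660 CPM in scrambled libraries. Of the other lists of 4 markers each, those of adipocytes, muscle, epithelium and endothelium summed to at most 2.30 CPM in knockdown and 1.46 CPM in scrambled libraries, with Plin1, Myod1, Myog, Epcam and Krt8 at 0 in all 8. Macrophage markers summed to 5.79 to 7.58 CPM in knockdown and 5.05 to 10.7 CPM in scrambled libraries with Emr1 at 0, and neural markers to 40.7 to 57.1 and 29.9 to 43.4 CPM with none of the 4 at 0 throughout. The precursor of ribosomal RNA, Rn45s, took 4.99% to 9.98% of the counts in knockdown and 5.63% to 7.69% in scrambled libraries.

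Transcripts of most splicing regulators were plentiful in both groups. Together they took 0.957% to 1.27% of the counts in knockdown libraries and 1.02% to 1.24% in scrambled libraries. Their levels are compared between genes as RPKM, the CPM per kilobase of the longest principal transcript. Among SR genes Srsf5 had the highest level per length, with means of 427.9 RPKM in knockdown and 450.7 RPKM in scrambled libraries. Srsf4 had the lowest of those tested, at 15.4 RPKM in knockdown and 15.6 RPKM in scrambled libraries. Srsf12 was nearly silent, with 2, 0, 1 and 0 counts in knockdown libraries 1 to 4 and 0 counts in every scrambled library, and was not tested. Hnrnpa2b1, an abundant hnRNP that also sorts RNAs for transport, was the highest of all 37, at 848.0 RPKM in knockdown and 862.1 RPKM in scrambled libraries. Hnrnpa1 and Hnrnpr were lowest per length among the hnRNPs, Hnrnpa1 at 5.42 RPKM in knockdown and 6.37 RPKM in scrambled libraries. Hnrnpr stood at 6.17 RPKM in knockdown and 6.06 RPKM in scrambled libraries. The rank of Hnrnpr rests on a principal transcript of 21452 bases. Before division by length it had 106.6 to 164.7 CPM in knockdown and 114.9 to 147.9 CPM in scrambled libraries. Windows of 75 bases, the length of a read, were pooled over all annotated transcripts of a gene. Of those of Hnrnpa1, 27.0% also occur in transcripts of 14 other genes, led by the pseudogene Gm10052. These are 889 windows, against a principal transcript of 1918 bases, and the share within that transcript was not counted. How such reads were counted is not stated, so the level of Hnrnpa1 is uncertain. Among kinases Clk1 was highest per length, at 109.3 RPKM in knockdown and 117.2 RPKM in scrambled libraries, and Clk3 lowest, at 10.2 RPKM in knockdown and 10.1 RPKM in scrambled libraries.

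The first comparison asks which splicing regulators differ between knockdown and scrambled cells when both sets are fitted together. The hnRNP transcripts Hnrnpa3, Hnrnpab and Hnrnph1 fell in knockdown cells, and none of the splicing regulators was called higher. Hnrnpab decreased by 6.91% and Hnrnph1 decreased by 6.98%, while Hnrnpa3 decreased by 12%. Of the 36 genes tested 3 were called at an adjusted p under 0.05 (edgeR quasi-likelihood test, Benjamini-Hochberg over all genes tested), which is 8.33%, and over all 11723 genes tested the share called was 7.57%. By edgeR the share of called splicing regulators was therefore close to that of genes in general. By direction, 0 of 36 were called higher against 3.97% of all genes, and 3 of 36 lower against 3.61%. None of the 12 tested SR and Tra2 genes and none of the 6 kinases was called by edgeR, although 3 and 4 of them had an unadjusted p under 0.05. The share of all genes at that unadjusted level was not counted, so these counts have nothing to be measured against. DESeq2 gave 3 calls among the 36 as well, while over all genes it called fewer, 622 against 888 by edgeR. The changes were small as a group: the median log2 fold change of the 36 was -0.03, with 21 below 0, against 0.00 and 49.2% below 0 for all genes. The median size of the log2 fold change, without sign, was 0.0341 for the splicing regulators and 0.0776 for all genes tested. All genes tested include those averaging as few as 10 counts, whose estimates carry more counting error than those of plentiful transcripts. No comparison with genes of similar level was made. Whether splicing regulators responded less than other genes was therefore not tested.

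**Figure D1:**
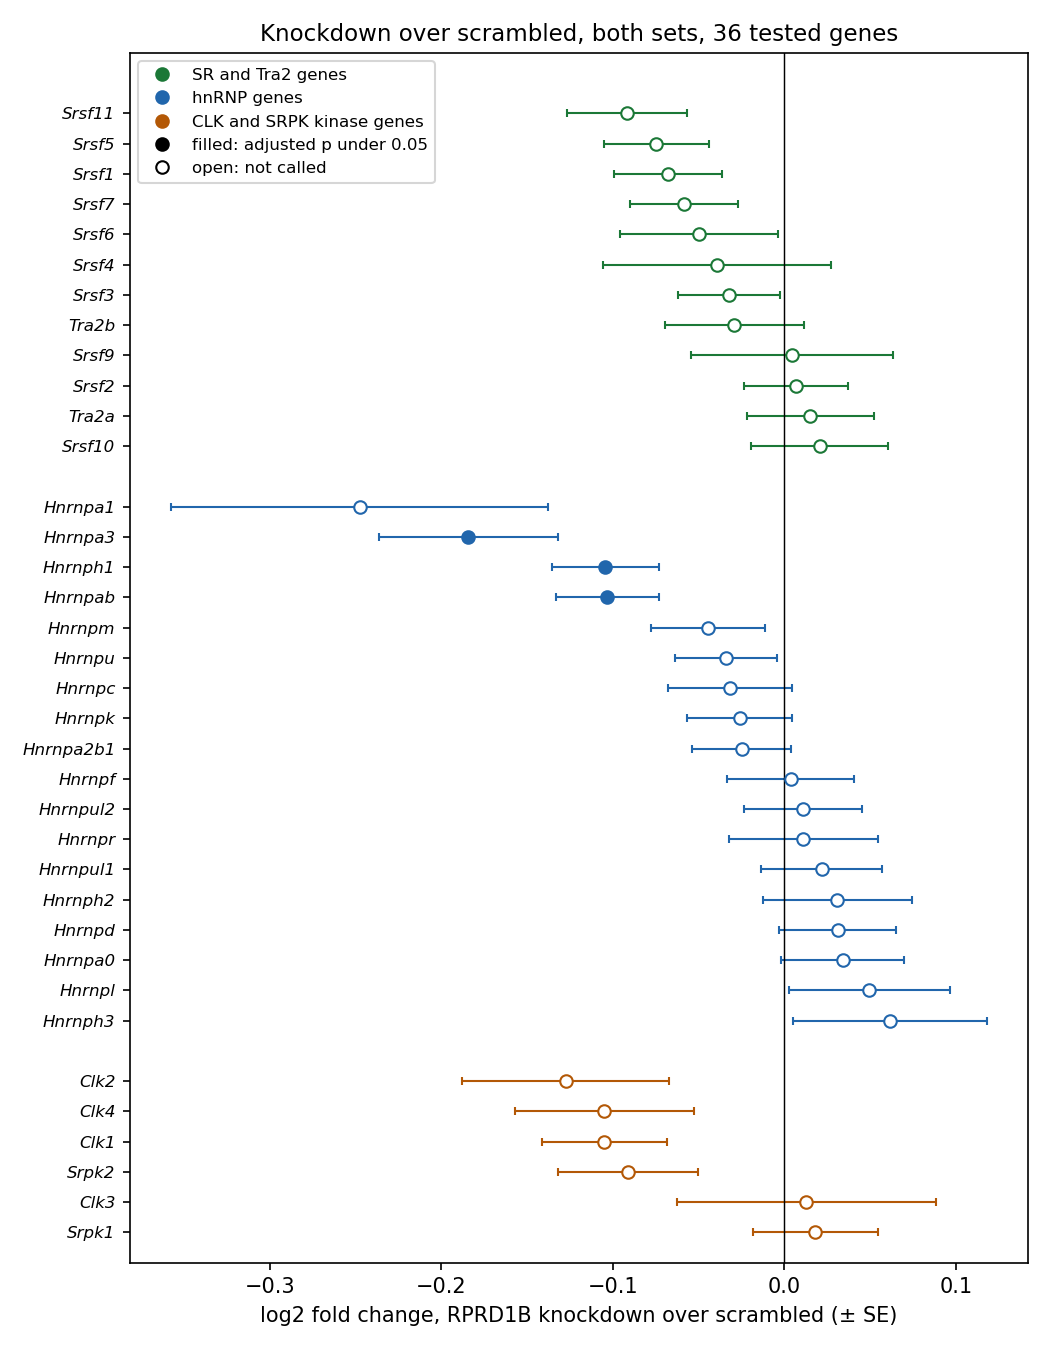
Log2 fold change of knockdown over scrambled libraries for the 36 tested genes over both sets, by class, with SE bars. Filled points mark Hnrnpa3, Hnrnpab and Hnrnph1, the 3 genes called at an adjusted p under 0.05, and every point lies between -0.25 and 0.06.

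Hnrnpa3 codes for an hnRNP of the A/B family that binds nascent and mature RNA, and lies on the plus strand of chromosome 2 (mm10, 75659261 to 75669407). It stood at 64.0 and 65.2 CPM in the knockdown libraries of set 1, against 75.0 and 68.1 CPM in the scrambled libraries of set 1. In set 2 the level was 47.9 and 48.3 CPM in knockdown libraries, against 55.3 and 57.2 CPM in scrambled libraries. Knockdown libraries were the lower ones in each set, with no overlap. The log2 fold change was -0.18 ± 0.0521 (SE, edgeR adjusted p = 0.0157). The call was lost without scrambled library 1, scrambled library 4 or knockdown library 4, where adjusted p was 0.0743, 0.0692 and 0.0570. Of the 75-base windows pooled over all annotated transcripts of Hnrnpa3, 26.1% also occur in transcripts of 39 other genes, led by the transcribed pseudogene Gm5641. These are 1457 windows, against a principal transcript of 1654 bases, and the share within that transcript was not counted. The part of the Hnrnpa3 signal that cannot be assigned with certainty may therefore be larger than 26.1%. In bulk RNA, less transcript per cell and fewer cells with the transcript cannot be told apart.

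Hnrnpab codes for a further A/B hnRNP, also known as a binder of DNA and of AU-rich RNA, and lies on the minus strand of chromosome 11 (51600100 to 51606847). Its level was 948 and 917 CPM in the knockdown libraries of set 1, against 952 and 992 CPM in the scrambled libraries of set 1. In set 2 it was 582 and 592 CPM in knockdown libraries, against 646 and 653 CPM in scrambled libraries. The gap between the groups was wide in set 2 and only a few CPM at its narrowest in set 1. Over both sets the log2 fold change was -0.10 ± 0.0301 (SE, edgeR adjusted p = 0.0203). It lost the call without knockdown library 2, 3 or 4 (adjusted p = 0.0630, 0.102 and 0.0619) or without scrambled library 3 or 4 (adjusted p = 0.0640 and 0.102). Of its exon bases 29.1% overlap Phykpl on the opposite strand, and the libraries are not described as stranded, so reads of the pair cannot be told apart there. Phykpl, listed under its older symbol Agxt2l2, was lower in knockdown libraries too, at a log2 fold change of -0.36 ± 0.114 (SE). Its part in the value of Hnrnpab was not tested.

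Hnrnph1 codes for an hnRNP that binds runs of G in exons and introns, and lies on the plus strand of chromosome 11 (50376990 to 50386528). Its level was 610 and 620 CPM in the knockdown libraries of set 1, against 650 and 632 CPM in the scrambled libraries of set 1. In set 2 it was 475 and 448 CPM in knockdown libraries, against 518 and 505 CPM in scrambled libraries. Again the knockdown libraries were the lower ones in each set. The log2 fold change was -0.10 ± 0.0312 (SE, edgeR adjusted p = 0.0240), and the call was lost without scrambled library 3, scrambled library 4 or knockdown library 4, at adjusted p = 0.121, 0.0688 and 0.181. Only 1.20% of its windows are shared with another gene.

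**Figure D2:**
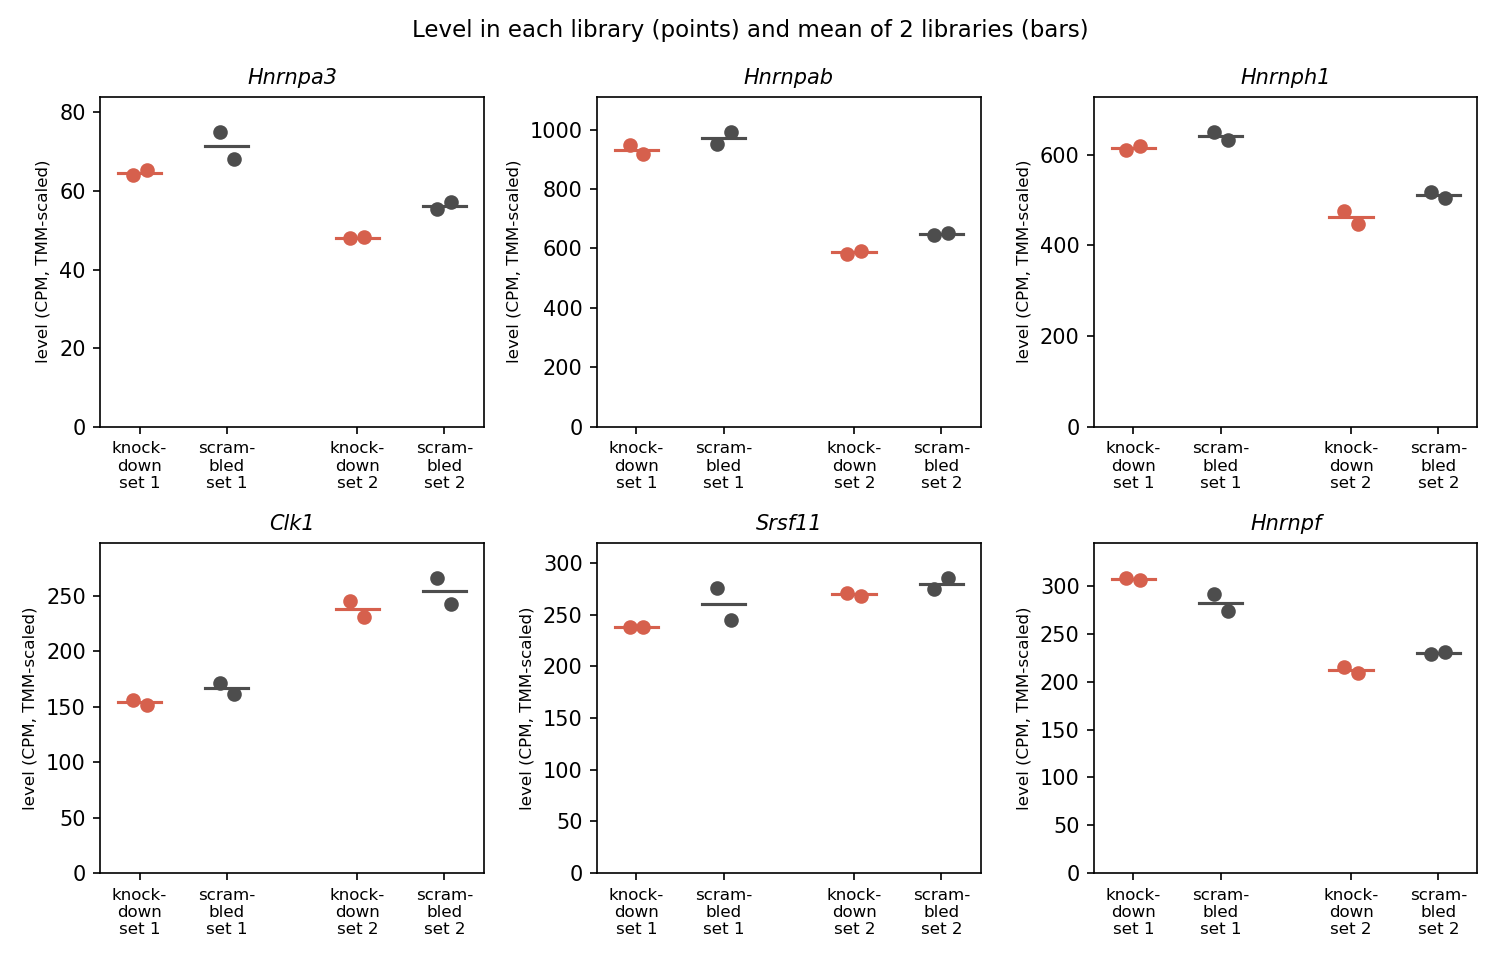
TMM-scaled CPM in each library (points) with the mean of the 2 libraries of a group and set (bars), for the called genes Hnrnpa3, Hnrnpab and Hnrnph1 and for Clk1, Srsf11 and Hnrnpf, which were not called. The 3 called genes lie lower in knockdown than in scrambled libraries in each set, while Hnrnpf lies higher in set 1 and lower in set 2.

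The sequences just upstream of the called genes, and of Srsf6, which differed most between the sets, show what kind of promoter these genes have. Each is the 250 bases before a transcription start listed by RefSeq for build GRCm38.p6 (mm10), printed 5′ to 3′ on the strand of the gene, with the window nearest to the annotated gene start taken where RefSeq lists several, as for Hnrnph1. Capitals mark GGGCGG (the GC box) and CCAAT, or CCGCCC and ATTGG where the match is on the other strand. In Hnrnpa3 a pair of GC boxes overlap each other. The windows are chr2:75659009-75659258 on the plus strand for Hnrnpa3, chr11:51606882-51607131 on the minus strand for Hnrnpab, chr11:50376740-50376989 on the plus strand for Hnrnph1, and chr2:162931258-162931507 on the plus strand for Srsf6.
Hnrnpa3: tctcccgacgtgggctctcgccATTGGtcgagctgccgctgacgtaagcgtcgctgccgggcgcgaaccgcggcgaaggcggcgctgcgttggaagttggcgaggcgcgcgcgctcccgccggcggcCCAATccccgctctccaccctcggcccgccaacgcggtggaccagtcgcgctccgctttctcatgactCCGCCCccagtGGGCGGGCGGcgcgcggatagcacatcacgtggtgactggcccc
Hnrnpab: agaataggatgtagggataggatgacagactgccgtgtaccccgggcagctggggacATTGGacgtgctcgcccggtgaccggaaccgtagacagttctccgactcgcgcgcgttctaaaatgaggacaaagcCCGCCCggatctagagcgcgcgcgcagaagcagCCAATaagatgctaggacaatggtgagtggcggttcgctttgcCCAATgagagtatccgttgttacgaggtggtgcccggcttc
Hnrnph1: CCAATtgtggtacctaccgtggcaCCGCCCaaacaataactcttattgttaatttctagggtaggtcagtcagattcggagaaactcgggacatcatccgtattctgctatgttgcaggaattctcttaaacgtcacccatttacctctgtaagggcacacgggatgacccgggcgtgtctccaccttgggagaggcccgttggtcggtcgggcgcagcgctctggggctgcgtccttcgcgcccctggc
Srsf6: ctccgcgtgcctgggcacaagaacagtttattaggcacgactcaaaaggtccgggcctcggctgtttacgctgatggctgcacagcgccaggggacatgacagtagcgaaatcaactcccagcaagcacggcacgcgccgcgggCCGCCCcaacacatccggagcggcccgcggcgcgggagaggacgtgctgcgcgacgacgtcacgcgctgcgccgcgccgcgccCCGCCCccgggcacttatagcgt
The Hnrnpa3 window holds 3 GC boxes and 2 CCAAT motifs, at a GC content of 73.2%. That of Hnrnpab holds 1 GC box and 3 CCAAT motifs at 58.4% GC, that of Hnrnph1 1 of each at 55.6% GC, and that of Srsf6 2 GC boxes and 0 CCAAT motifs at 68.4% GC.

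Such GC-rich starts were common among the splicing regulators. RefSeq gave a window for 35 of the 37 genes, and 28 of these (80%) held GGGCGG on either strand, against 32.9% of all 27025 promoter windows of the same length. CCAAT was in 17 (48.6%) against 34.5% of all, and CCGGAAG, a motif of ETS factors, in 7 (20%) against 7.05% of all. TATAAA was in 3 (8.57%) against 13% of all windows. The median GC content was 62% for the splicing regulators and 52% for all windows, and the median number of CpG pairs was 23 for the splicing regulators and 6 for all windows. The windows of all genes were taken whether or not the gene was expressed here, and no share among tested genes was counted. The contrast may therefore not be particular to splicing regulators. These matches describe letters and are not binding sites.

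Hnrnph1, Clk4 and Hnrnpab lie within 1.23 Mb of each other on chromosome 11 (mm10, 50376990 to 51606847), and genes around them were lower in knockdown libraries too. Clk4, a CLK kinase named here for its position after its values were seen, stood at 67.9, 67.4, 53.2 and 53.1 CPM in knockdown libraries 1 to 4, against 74.3, 69.4, 53.7 and 62.7 CPM in scrambled libraries 1 to 4. The knockdown libraries were lower in each set, and the log2 fold change of -0.10 ± 0.0524 (SE) gave an edgeR adjusted p of 0.256. Without scrambled library 4 it was -0.06 (adjusted p = 0.676). Around Hnrnph1, 120 other tested genes start within 10 Mb, and their median log2 fold change was -0.09, with 80.8% below 0. Of the 120, 0 were called higher and 22 lower (18.3%), against 3.97% higher and 3.61% lower over all genes tested. Around Hnrnpab the median over 137 such genes was -0.10, with 82.5% below 0 and 25 called lower (18.2%). Lying within 1.23 Mb, Hnrnph1 and Hnrnpab share most of these neighbours, so the 2 medians are not separate results. Hnrnph1 and Hnrnpab differed from the median of their neighbours by -0.02 and -0.01 on the log2 scale. The neighbours' medians were -0.08 in set 1 and -0.12 in set 2 around Hnrnph1. What part the shift of this stretch has in the calls of Hnrnph1 and Hnrnpab was not tested. Hnrnpa3, on chromosome 2, had no such surroundings: its 86 neighbours had a median of 0.03, and the difference of Hnrnpa3 from it was -0.22 on the log2 scale. Neighbours of Srsf5 on chromosome 12 had a median of -0.06 over 123 genes, against -0.07 for Srsf5 itself. Around Hnrnpul1 and Hnrnpl on chromosome 7 the neighbours' medians were 0.11 and 0.11, and those genes stood at 0.02 and 0.05.

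**Figure D3:**
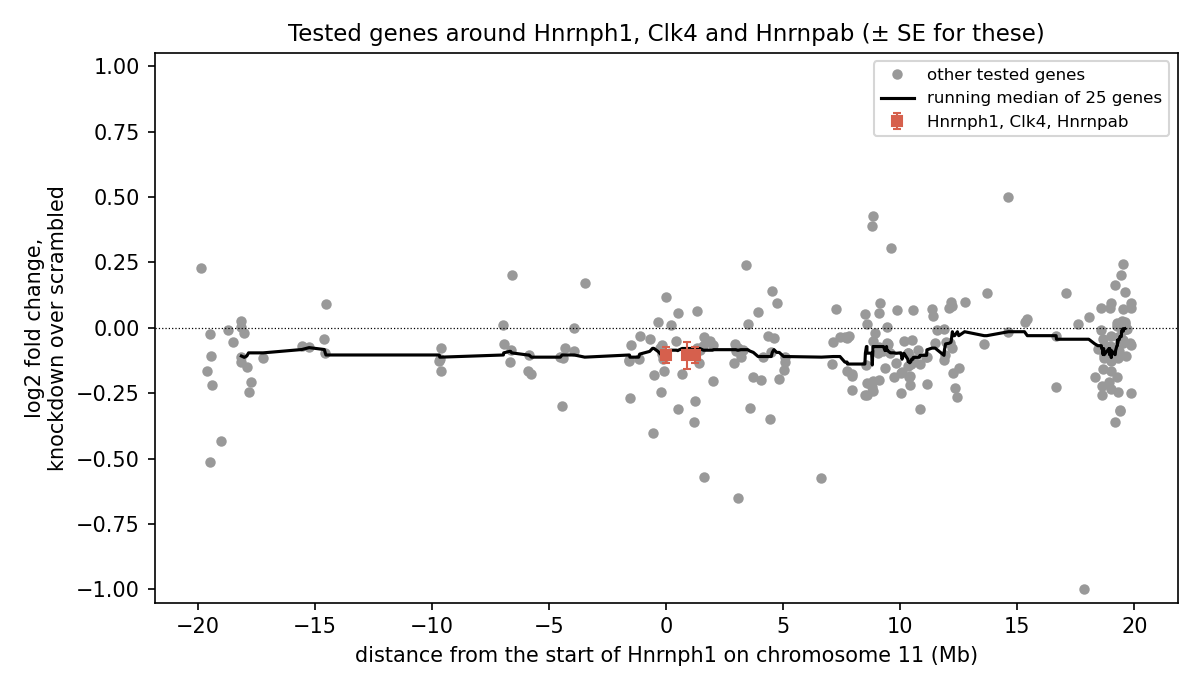
Log2 fold change of knockdown over scrambled libraries, both sets, for 252 tested genes on chromosome 11 against the distance of their start from that of Hnrnph1 in Mb, with the running median of 25 genes as a line and SE bars for Hnrnph1, Clk4 and Hnrnpab. The 3 splicing genes lie at -0.10, close to the line, and 1 gene beyond the axis limit of -1.0 is drawn at it.

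None of the other 15 hnRNP genes was called, and their estimates lay on both sides of 0. Hnrnpa1, the prototype of the family, had 10.1, 11.6, 11.2 and 8.67 CPM in knockdown libraries 1 to 4, against 12.7, 13.4, 11.7 and 11.1 CPM in scrambled libraries 1 to 4. Its estimate was the lowest of the 36 genes but imprecise (log2 fold change -0.25 ± 0.110 SE, edgeR adjusted p = 0.176), and in set 2 the groups overlapped. Hnrnpm, a binder of GU-rich RNA, had 362, 347, 272 and 278 CPM in knockdown libraries, against 343, 365, 298 and 288 CPM in scrambled libraries (log2 fold change -0.04 ± 0.0334 SE, edgeR adjusted p = 0.518). Hnrnpu, which also attaches chromatin to the nuclear scaffold, had 1177, 1165, 780 and 774 CPM in knockdown libraries and 1132, 1183, 834 and 815 CPM in scrambled libraries. For both genes the groups overlapped in set 1 and stood apart in set 2. The log2 fold change of Hnrnpu was -0.03 ± 0.0298 (SE, edgeR adjusted p = 0.595). Hnrnpa2b1 had 1569, 1568, 1290 and 1210 CPM in knockdown libraries and 1561, 1614, 1268 and 1289 CPM in scrambled libraries. Its groups overlapped in each set, and its log2 fold change was -0.02 ± 0.0290 (SE, edgeR adjusted p = 0.712). The highest hnRNP estimate was that of Hnrnph3, at 0.06 ± 0.0564 (SE, edgeR adjusted p = 0.616). Entries still listed under the older symbols Hnrpdl and Hnrpll, now Hnrnpdl and Hnrnpll, fall outside the choice by symbol and stood at -0.06 and -0.04 (edgeR adjusted p = 0.265 and 0.687). Transcripts of all 18 hnRNP genes together made 7584.5, 7486.4, 5760.2 and 5673.4 CPM in knockdown libraries 1 to 4. In scrambled libraries 1 to 4 they made 7433.4, 7642.1, 5979.4 and 5970.4 CPM. These sums overlapped between the groups in set 1 and stood apart in set 2.

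The SR and Tra2 genes gave log2 fold changes between -0.09 and 0.02, 8 of 12 below 0. Srsf11, an SR-related protein of nuclear speckles, had 238, 239, 271 and 268 CPM in knockdown libraries 1 to 4, against 276, 245, 275 and 285 CPM in scrambled libraries 1 to 4. All knockdown libraries were lower within their set, and the log2 fold change was -0.09 ± 0.0350 (SE, edgeR adjusted p = 0.0995). Without scrambled library 1 the value was -0.05 (adjusted p = 0.501), and without scrambled library 2 it was -0.12 and called (adjusted p = 0.0330). Srsf5, first described in rat as an insulin-induced gene, had 786, 838, 527 and 534 CPM in knockdown libraries, against 868, 841, 546 and 572 CPM in scrambled libraries. Srsf1, the founding SR protein and an activator of exon inclusion, had 526, 503, 327 and 337 CPM in knockdown libraries, against 531, 540, 343 and 360 CPM in scrambled libraries. Both were lower in each knockdown library than in the scrambled libraries of its set, at log2 fold changes of -0.07 ± 0.0305 and -0.07 ± 0.0316 (SE), and neither was called by edgeR (adjusted p = 0.133 and 0.210). Srsf4, whose exons overlap Gm12992 on the opposite strand over 43.0% of their bases, had 45.4, 48.9, 21.1 and 23.4 CPM in knockdown libraries and 44.5, 46.9, 25.4 and 24.3 CPM in scrambled libraries. The groups of Srsf4 overlapped in set 1 and stood apart in set 2, and its log2 fold change was -0.04 ± 0.0664 (SE, edgeR adjusted p = 0.817). The Tra2 genes stood at 0.02 ± 0.0371 for Tra2a and -0.03 ± 0.0404 for Tra2b (SE, edgeR adjusted p = 0.881 and 0.767). Summed over the class, SR and Tra2 transcripts made 4372, 4388, 3351 and 3402 CPM in knockdown libraries 1 to 4, against 4520, 4476, 3453 and 3509 CPM in scrambled libraries 1 to 4.

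Among the kinases 4 of 6 estimates lay below 0, and none was called by edgeR. These 4 had an unadjusted p under 0.05, a level at which the share of all genes was not counted. Clk1, whose own transcript keeps introns in the nucleus until it is needed, had 156, 152, 246 and 231 CPM in knockdown libraries 1 to 4, against 172, 162, 266 and 243 CPM in scrambled libraries 1 to 4. In set 1 the groups stood apart and in set 2 they overlapped, and the log2 fold change was -0.10 ± 0.0366 (SE, edgeR adjusted p = 0.0654). This gene was near the threshold: it was called with upper-quartile scaling (adjusted p = 0.0470) and without scrambled library 2, scrambled library 4 or knockdown library 3 (adjusted p = 0.0430, 0.0305 and 0.0497). It moved away from the threshold without scrambled library 3 (-0.08, adjusted p = 0.301), knockdown library 4 (adjusted p = 0.240) or scrambled library 1 (adjusted p = 0.187), and with DESeq2 (adjusted p = 0.123). Srpk2, an SRPK kinase, had 106, 108, 132 and 123 CPM in knockdown libraries, against 111, 112, 139 and 137 CPM in scrambled libraries. The knockdown libraries were lower in each set (log2 fold change -0.09 ± 0.0408 SE, edgeR adjusted p = 0.183). Clk2 had 46.0, 43.6, 37.4 and 34.4 CPM in knockdown libraries and 50.6, 51.3, 35.99 and 38.8 CPM in scrambled libraries, a log2 fold change of -0.13 ± 0.0602 (SE, edgeR adjusted p = 0.218). Clk3 had 27.2, 29.9, 22.7 and 21.8 CPM in knockdown libraries and 27.6, 30.3, 19.9 and 23.2 CPM in scrambled libraries, with overlap in each set and a log2 fold change of 0.01 ± 0.0755 (SE, edgeR adjusted p = 0.953). The remaining kinase, Srpk1, stood at 0.02 ± 0.0366 (SE, edgeR adjusted p = 0.850). The kinase transcripts together made 599, 590, 636 and 608 CPM in knockdown libraries, against 622, 617, 660 and 645 CPM in scrambled libraries, so the sum was lower in each knockdown library than in the scrambled libraries of its set.

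Counted by libraries rather than by the test, 8 of the 36 genes (22.2%) had both knockdown libraries below both scrambled libraries in each set, and 0 of 36 had them above. Over all genes tested these shares were 8.18% and 8.23%. The 8 genes were Hnrnpa3, Hnrnpab, Hnrnph1, Srsf1, Srsf5, Srsf11, Clk4 and Srpk2, drawn from all 3 classes. Hnrnpab, Hnrnph1 and Clk4 are those of the chromosome 11 stretch, where neighbouring genes were also lower, and Srsf5 stood near the median of its own neighbours.

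Fitted within each set, Hnrnph1 and Hnrnpab were called in set 2 and no splicing regulator was called in set 1, with no difference between the sets that passed its own test. In set 1 edgeR called 0 of 36 splicing regulators, against 4.86% of all genes, and DESeq2 called 0 of them as well. At an unadjusted p under 0.05 there were 7 of the 36, a count without a share of all genes beside it. Without scrambled library 1 Hnrnpf was called there, and without scrambled library 2 Srsf6, Srsf11 and Hnrnpd were (3 genes). In set 2 edgeR called Hnrnph1 and Hnrnpab lower (2 of 36), at -0.15 and -0.15 on the log2 scale (adjusted p = 0.00530 and 0.00482), and the share called over all genes was 5.19%, or 2.64% lower. DESeq2 called Hnrnpab and not Hnrnph1 (adjusted p = 0.0216 and 0.0620). Hnrnph1 lost its call without scrambled library 3 or knockdown library 4 (adjusted p = 0.204 and 0.312), and Hnrnpab without scrambled library 3, scrambled library 4 or knockdown library 3 (adjusted p = 0.0971, 0.128 and 0.101). In set 1 the same genes stood at -0.06 and -0.06 (edgeR adjusted p = 0.520 and 0.496), and their effects were not shown to differ between the sets (edgeR adjusted p of the difference = 0.687 and 0.684). In the authors' deposited table for set 2, Hnrnph1 and Hnrnpab were also the splicing regulators with a q-value under 0.05, at log2 fold changes of -0.151 and -0.148 (q = 0.0365 and 0.00398). For set 1, the authors' deposited table listed 35 of the 37 genes, 0 of them with a q-value under 0.05. Of the 36 genes, 14 had estimates below 0 in both sets, 5 above 0 in both, and 17 had opposite signs.

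The difference in the knockdown effect between the sets was tested as an interaction. Of the 36 genes edgeR called 0, against 0.247% of all genes tested, and DESeq2 called 0. At an unadjusted p under 0.05 there were 4 of the 36, again without a share of all genes. Hnrnpf, a G-run binder related to Hnrnph1, came nearest and is named with the other genes of this paragraph after their values were seen. It had 308 and 306 CPM in knockdown libraries of set 1, against 291 and 274 CPM in scrambled libraries of set 1. In set 2 it had 216 and 209 CPM in knockdown libraries, against 229 and 231 CPM in scrambled libraries. The knockdown libraries were thus the higher ones in set 1 and the lower ones in set 2, with log2 fold changes of 0.12 and -0.12. The difference, set 2 minus set 1, was -0.24 ± 0.0629 (SE, edgeR adjusted p = 0.0866). It was called without the filter on low counts (adjusted p = 0.0461) and without scrambled library 1 (adjusted p = 0.0410). Of the windows pooled over all annotated transcripts of Hnrnpf, 56.0% also occur in transcripts of 10 other genes, led by the pseudogene Gm6430. These are 1764 windows, against a principal transcript of 2401 bases. Hnrnpr, an hnRNP of transport and splicing, had 165 and 150 CPM in knockdown libraries of set 1, against 148 and 140 CPM in scrambled libraries of set 1. In set 2 it had 107 and 108 CPM in knockdown libraries, against 117 and 115 CPM in scrambled libraries. Its difference was -0.24 ± 0.0769 (SE, edgeR adjusted p = 0.218). Srsf6 went the other way, at -0.14 in set 1 and 0.06 in set 2 (difference 0.21 ± 0.0795 SE, edgeR adjusted p = 0.401), and the difference was 0.10 without scrambled library 3 and 0.11 without knockdown library 4. With Hnrnpf and Hnrnpr, the hnRNP genes Hnrnpa0, Hnrnpk and Hnrnpul1 also had knockdown libraries on opposite sides of the scrambled libraries in the sets, which makes 5 of 36 (13.9%) against 6.06% of all genes. Their differences were 0.13, -0.11 and -0.09, and none passed the edgeR test (adjusted p = 0.593, 0.572 and 0.727). That of Hnrnpa0 was 0.06 without knockdown library 4, and that of Hnrnpul1 was -0.04 without scrambled library 1 and -0.15 without scrambled library 2.

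**Figure D4:**
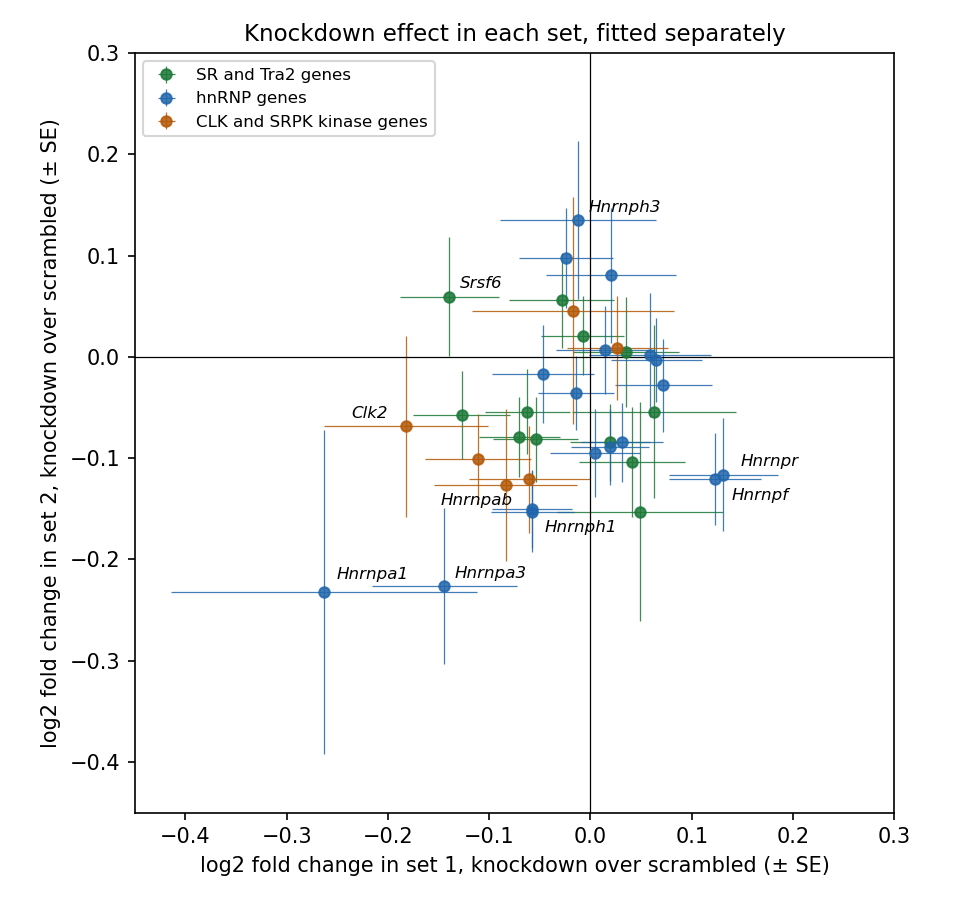
Log2 fold change of knockdown over scrambled libraries in set 2 (vertical, with SE) against that in set 1 (horizontal, with SE), each set fitted alone, for the 36 tested genes coloured by class. Hnrnpab and Hnrnph1 lie at -0.06 in set 1 and -0.15 in set 2, and Hnrnpf and Hnrnpr lie above 0 in set 1 and below 0 in set 2.

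Other proteins of the splicing pathway were read from lists made for this comparison over both sets. Of 28 SR-related proteins, 49 core spliceosome proteins and 22 further kinases, phosphatases and transport factors, all tested, edgeR called 0, and the lists' median log2 fold changes were -0.01, -0.00127 and -0.00682 against 0.00 for all genes. The smallest p values in these lists belonged to Pnn (-0.10, adjusted p = 0.0688) and Nktr (-0.11, adjusted p = 0.0692), to Sf3b3 (-0.09, adjusted p = 0.117) and Sf3a1 (-0.11, adjusted p = 0.121) of the U2 snRNP, and to the phosphatase subunit Ppp1ca (0.08, adjusted p = 0.105) and the export adaptor Alyref (-0.21, adjusted p = 0.113). Of 55 other sequence-specific regulators 43 were tested, and 3 rose and 1 fell, or 9.30% called against 7.57% of all genes. Elavl2, a Hu protein that binds AU-rich RNA, rose to means of 50.03 and 44.0 CPM in the knockdown libraries of sets 1 and 2, against 30.6 and 27.6 CPM in the scrambled libraries (log2 fold change 0.69 ± 0.0653 SE, edgeR adjusted p = 5.04e-13). Rbm47 rose to 9.04 and 6.72 CPM in knockdown libraries, against 5.20 and 4.61 CPM in scrambled libraries (log2 fold change 0.68 ± 0.142 SE, edgeR adjusted p = 0.00053). Celf5 rose to 7.59 and 11.4 CPM in knockdown libraries, against 6.44 and 7.61 CPM in scrambled libraries (log2 fold change 0.43 ± 0.126 SE, edgeR adjusted p = 0.0204), a call lost without scrambled library 1, 3 or 4 or knockdown library 4 (adjusted p = 0.0507, 0.0632, 0.115 and 0.122) and with DESeq2 (adjusted p = 0.0644). Ewsr1, an RNA-binding protein of the FET family, fell to 316 and 263 CPM in knockdown libraries, against 344 and 291 CPM in scrambled libraries (log2 fold change -0.14 ± 0.0331 SE, edgeR adjusted p = 0.00343). Elavl2 and Celf5 are known from neurons, and the neural markers summed to 40.7 to 57.1 CPM in knockdown and 29.9 to 43.4 CPM in scrambled libraries; their part in these rises was not tested. Of 17 factors of nonsense-mediated decay and the exon junction complex, 1 rose: Eif4a3, the helicase that anchors the complex, at 185 and 143 CPM in knockdown libraries, against 163 and 130 CPM in scrambled libraries (log2 fold change 0.16 ± 0.0375 SE, edgeR adjusted p = 0.00221).

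The splicing regulators differed far more between the sets than between knockdown and scrambled cells. Of the 36 genes 34 (94.4%) were called for set 2 over set 1, 29 lower and 5 higher in set 2, while over all genes 65.9% were called, 32.9% lower and 33% higher. The exceptions were Hnrnpa1 and Hnrnpc, at -0.18 ± 0.110 and -0.04 ± 0.0361 on the log2 scale (SE, edgeR adjusted p = 0.149 and 0.334). The median log2 fold change was -0.33 for the 36 genes and -0.01 for all genes, and the split of 29 and 5 was the same under DESeq2 size factors and upper-quartile scaling. Culture, library preparation and sequencing run cannot be told apart here.

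By class, 10 of 12 SR and Tra2 genes, 15 of 18 hnRNP genes and 4 of 6 kinases were called lower in set 2. Of the 18 hnRNP estimates 17 lay below 0. Srsf6, an SR protein, stood at 94.6 and 106 CPM in knockdown and 90.7 and 103 CPM in scrambled libraries of set 2. In set 1 it stood at 207 and 200 CPM in knockdown and 233 and 216 CPM in scrambled libraries. No library of set 2 reached any of set 1, and the log2 fold change of -1.11 ± 0.0462 (SE, edgeR adjusted p = 2.80e-22) is a level 0.463 times that of set 1. The smallest p belonged to Srsf7, an SR protein that also serves mRNA export, at means of 323.5 CPM in set 2 and 545.2 CPM in set 1 (log2 fold change -0.75 ± 0.0316 SE, edgeR adjusted p = 2.29e-32). Its libraries held 319 and 316 CPM in knockdown and 319 and 340 CPM in scrambled cells of set 2, against 536 and 530 CPM in knockdown and 559 and 556 CPM in scrambled cells of set 1. Hnrnpab, Srsf5 and Srsf1 followed at -0.62, -0.61 and -0.62 on the log2 scale (edgeR adjusted p = 6.13e-29, 3.26e-28 and 1.20e-27), and Srsf4 stood at -0.97. Clk1 went against the majority, with 246.3 CPM in set 2 and 160.4 CPM in set 1 (log2 fold change 0.62 ± 0.0367 SE, edgeR adjusted p = 2.58e-24). Hnrnpul2, Srpk2 and Tra2a were also higher in set 2, at 0.38, 0.28 and 0.24 on the log2 scale (edgeR adjusted p = 6.99e-16, 1.25e-08 and 3.86e-08), and Srsf11 stood at 0.14. Hnrnpul2 had 282 and 278 CPM in knockdown and 282 and 273 CPM in scrambled libraries of set 2, against 218 and 212 CPM in knockdown and 205 and 221 CPM in scrambled libraries of set 1. Tra2a had 193 and 199 CPM in knockdown and 190 and 187 CPM in scrambled libraries of set 2, against 161 and 161 CPM in knockdown and 172 and 157 CPM in scrambled libraries of set 1. In Hnrnpul2 and Tra2a each library of set 2 lay above every library of set 1.

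**Figure D5:**
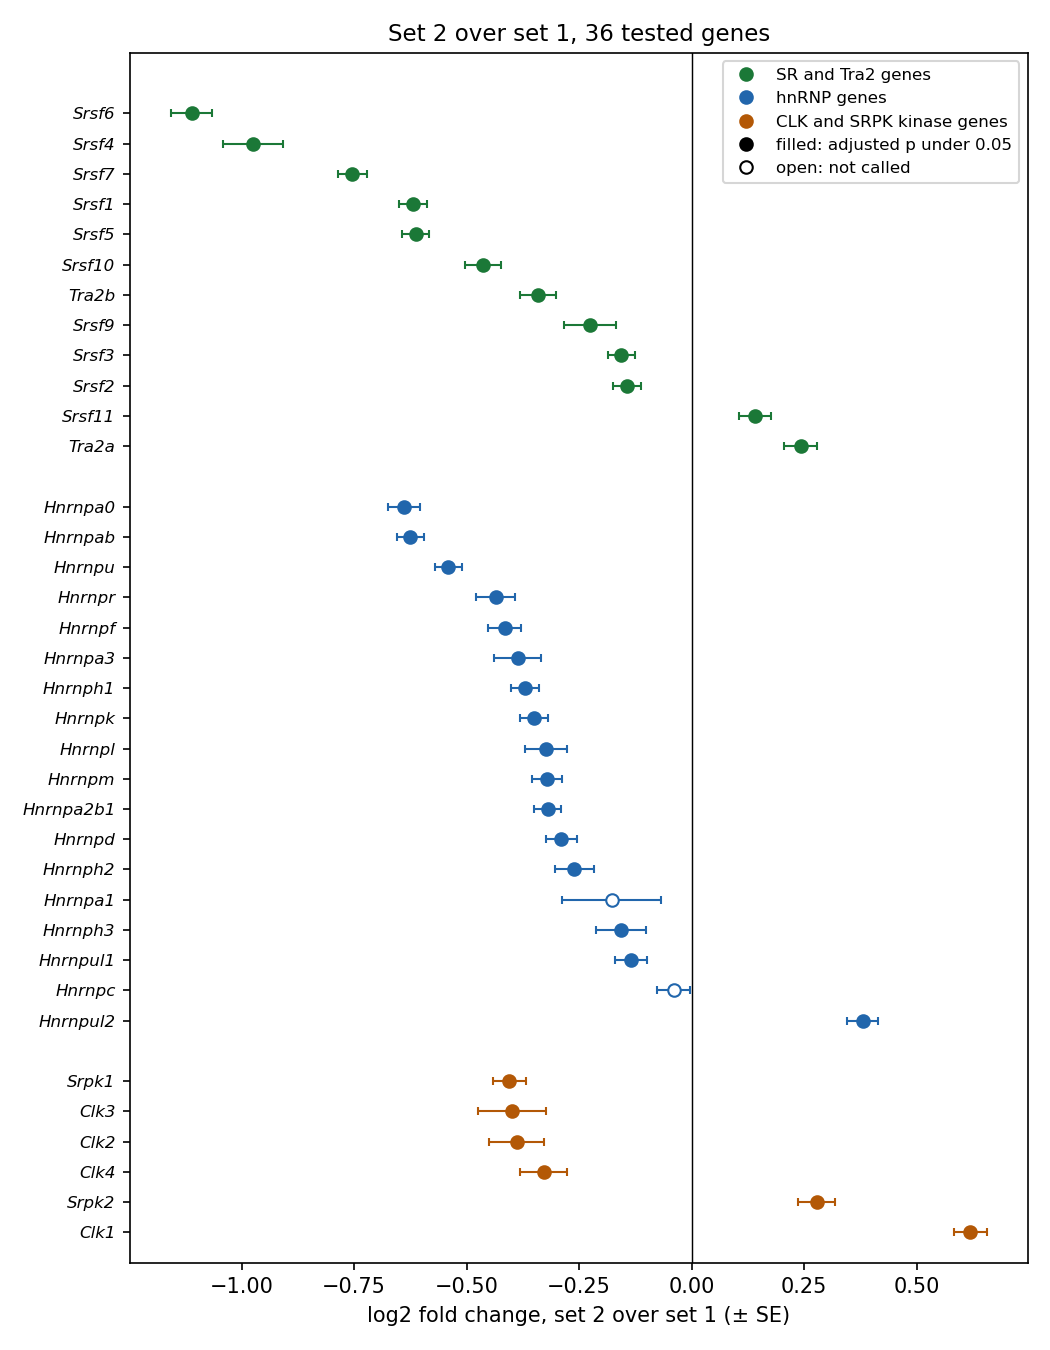
Log2 fold change of set 2 over set 1 for the 36 tested genes, by class, with SE bars. Filled points mark the 34 genes called at an adjusted p under 0.05, and only Srsf11, Tra2a, Hnrnpul2, Srpk2 and Clk1 lie above 0.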

How the data were processed

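RNA of NIH3T3 cells was read as paired 75-base reads from random-primed cDNA of a low-input kit, per the labels' protocols, which describe no strand marking and name build mm10. Aligner, counter and annotation: not given in the sources used here. Deposited counts are whole numbers per gene and library, not normalised, with 23420 entries, of which 27 have names turned into dates. The authors' deposited tables add a signal (the mean of scaled counts over 4 libraries), a log2 fold change, a score (its standard error) and a q-value, which were used in no test.

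Genes averaging at least 10 counts were tested on the deposited counts with edgeR 4.0.16 (robust quasi-likelihood F test, TMM scaling) in R 4.3.3, with terms for set and group. Within sets the term was the group, and the difference was their interaction. Adjusted p-values are Benjamini-Hochberg over all genes tested, called under 0.05, and SE is the size of the log2 fold change divided by the root of F. All tests are two-sided. DESeq2 1.42.0, other scalings and filters, a fit without the set term, a replicate block and leaving out each library were alternatives. RPKM uses the longest principal transcript of GENCODE for GRCm38, the assembly mm10 names. Distinct windows of 75 bases, pooled over all annotated transcripts of a gene, were searched for in transcripts of other genes on both strands. Neighbours are tested genes with a start within 10 Mb. Replicates of a group and set differed beyond counting noise (chi-square per degree of freedom 2.97 to 6.94), so none was merged.

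The genes, lists and comparisons were chosen with earlier results of these data known. Values in each library are given for called genes, the 3 uncalled genes of each class with the smallest p, the highest and lowest per length in each class, and the 4 of smallest p in each direction between the sets; exceptions are named in the text.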

Additional observations from a re-analysis of the deposited data

How the results depend on the processing

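The direction of all 3 called genes held under every alternative, but their calls did not. Over both sets 3 splicing regulators were called; leaving out a library gave 0 (knockdown library 4) to 5 (scrambled library 2), and the fit without the set term 0. Over all genes 888 were called; leaving out a library gave 625 to 829, and the fit without the set term 18. Leaving out a library gave 0 to 3 calls in set 1, 0 to 1 in set 2, 0 to 1 for the difference between sets and 33 to 34 for set 2 over set 1. The DESeq2 test gave 1 call in set 2, and no filter on low counts gave 1 for the difference (Hnrnpf). Upper-quartile scaling moved the median log2 fold change of all genes to -0.00333 for the knockdown and -0.0314 for set 2 over set 1.

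Of 685 values of 45 results for single genes under alternatives, 628 kept direction and side of the threshold, 38 lost the call, 7 gained it and 12 changed sign. The sign changes were of genes near 0. Without single libraries Clk3 ranged from -0.0364 to 0.0475, Hnrnpul2 from -0.0115 to 0.0305 and Tra2a from -0.00372 to 0.0479. In set 1 alone Clk3 was at -0.0169, Hnrnpm at 0.00459, Hnrnpu at 0.0194, Srsf4 at 0.0492 and Tra2a at -0.0286. The causes were not tested.

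With the replicate number as a block the same 3 genes were called over both sets (adjusted p = 0.0398 for Hnrnph1, 0.0367 for Hnrnpab and 0.0184 for Hnrnpa3), with 0 calls in set 1, 2 in set 2 and 0 for the difference. The numbers are not stated to pair libraries, and same-numbered libraries deviated together hardly at all (correlation across genes 0.00768 in set 1, -0.0402 in set 2). With 2 libraries per group and set and counting noise in each, this correlation cannot settle whether they were paired. Depth limits Srsf12, whose 0 counts in a library allow up to 0.129 to 0.233 CPM, and groups of 2 libraries limit the tests within a set.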
